A study of Mus musculus with 9 samples.

Results

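Imprinted long noncoding RNAs are made from 1 parental copy of a chromosome domain, and several of them are known for their part in silencing neighbouring genes in cis. The 4 loci described here are the Meg3-Rian-Mirg stretch, Kcnq1ot1, H19 and Airn. Their members are peaks of RNA captured, after crosslinking, with a tagged subunit of Polycomb repressive complex 2 (PRC2). A peak was a member when its summit lay in a fixed mm9 window on the strand of the RNA, and 133 of the 49266 peaks of the series met this rule, 0.270%. They comprised 95 peaks in Meg3-Rian-Mirg, 11 in Kcnq1ot1, 10 in H19 and 17 in Airn.

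The cells were female EL16.7 mouse embryonic stem cells, a CAST/Ei x 129/Sv/Jae hybrid, at day 7 of differentiation. All 4 libraries came from stable clones that expressed the biotin ligase BirA, with Avi-GFP-mEzh2 in the EZH2 group and Avi-GFP-mSuz12 in the SUZ12 group. EZH2 is the histone methyltransferase of PRC2 and SUZ12 is a core subunit. Each library was 1 clone (4A and 5A for EZH2, 8E and 8H for SUZ12), and the tagged protein was expressed from a stable transgene beside whatever the cells made themselves. In dCLIP, RNA is crosslinked to protein with UV light and the tagged protein is captured on streptavidin. The mock library (empty vector) and the 4 PRO-seq libraries of the series were not analysed here, so no level in an untagged control stands beside these values. Cell identity could not be checked against marker genes, because the files are peak lists. EZH2 lists held 10468 peaks (replicate 1) and 13267 (replicate 2), and SUZ12 lists 11580 (replicate 1) and 13951 (replicate 2).

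Meg3, Rian and Mirg lie in this order on the plus strand of chromosome 12, in the Dlk1-Dio3 domain, and are expressed from the maternal copy. Their transcripts host small RNAs, and Mirg carries a large cluster of microRNAs. Kcnq1ot1 starts inside Kcnq1, runs antisense to it and is expressed from the paternal copy, where it silences genes of its domain. Airn likewise starts inside Igf2r, runs antisense to it and silences it on the paternal copy. H19 is a short, spliced, abundant RNA of the maternal copy, next to Igf2, and is the precursor of miR-675. PRC2 places a repressive methyl mark on histone H3, and Meg3 and Kcnq1ot1 RNA have both been studied for contact with it.

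The first 50 transcribed bases in RefSeq (GRCm38.p6) are shown to identify each transcript and its direction, and for H19 the mature miR-675 arms are shown, with the seed (bases 2 to 8) in capitals. The peaks are in mm9, so no peak position was compared with these sequences, and peaks were not assigned to exons or introns. RefSeq places 10 microRNA hairpins inside Mirg, 3 inside Rian, 1 inside Meg3, 1 inside H19 and 0 inside Kcnq1ot1 and Airn. The starts are at chr12:109540996-109541045 for the first Meg3 start, chr12:109603945-109603994 for Rian, chr12:109734981-109735030 for Mirg and chr17:12741311-12741360 for Airn, all on the plus strand. Kcnq1ot1 starts at chr7:143296498-143296547 on the minus strand, and the miR-675 arms lie on that strand at chr7:142577112-142577133 (5p) and chr7:142577078-142577099 (3p).
Meg3: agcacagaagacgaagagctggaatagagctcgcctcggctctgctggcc
Rian: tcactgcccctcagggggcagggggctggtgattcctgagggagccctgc
Mirg: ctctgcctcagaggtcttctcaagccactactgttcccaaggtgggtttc
Kcnq1ot1: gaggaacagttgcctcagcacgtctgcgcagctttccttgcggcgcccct
Airn: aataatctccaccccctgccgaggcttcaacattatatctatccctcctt
miR-675-5p: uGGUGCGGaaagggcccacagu
miR-675-3p: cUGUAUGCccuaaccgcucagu

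Peaks of RNA captured with tagged EZH2 or SUZ12 were found in all 4 loci in all 4 libraries, and almost all lay on the strand of the noncoding RNA. Meg3-Rian-Mirg, 225 kb at chr12:110775000-111000000, held 21 and 18 peaks in EZH2 replicates 1 and 2 and 34 and 22 in SUZ12 replicates 1 and 2. Kcnq1ot1, 94 kb on the minus strand at chr7:150389000-150483000, held 3, 3, 3 and 2 peaks in the same order of libraries. The 3.5-kb H19 window, on the minus strand at chr7:149761000-149764500, held 4, 2, 3 and 1. Airn, 119 kb on the plus strand at chr17:12934000-13053000, held 4, 6, 5 and 2. SUZ12 replicate 1 had the highest number in Meg3-Rian-Mirg, and SUZ12 replicate 2 the lowest in each of the 3 other loci. Over the 4 loci this made 32 and 29 members in EZH2 and 45 and 27 in SUZ12, or 0.306%, 0.219%, 0.389% and 0.194% of the peaks of these libraries, so the longest list held the lowest share. In these bulk libraries fewer cells with an RNA and less RNA per cell cannot be told apart. The RNA level of the loci was not measured here, and its part in the number of peaks was not tested.

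On the opposite strand Meg3-Rian-Mirg, Kcnq1ot1 and H19 held 0 peaks in each of the 4 libraries. The single opposite-strand peak lay in the Airn window in SUZ12 replicate 2, at chr17:12958591-12958714, with a false discovery rate (FDR) of 0.00489 in the deposited list. That strand carries Igf2r in the Airn window, Kcnq1 around Kcnq1ot1 and Rtl1 between Meg3 and Rian. The mean excess of the RNA strand was 23.75 peaks in Meg3-Rian-Mirg, 2.75 in Kcnq1ot1, 2.5 in H19 and 4 in Airn. Every locus had more peaks on the RNA strand in 4 of 4 libraries, and each gave p = 0.13 in an exact sign-flip permutation test (two-sided, also 0.13 after adjustment over 4 tests). This is 2 of 16 sign patterns, the smallest p that 4 libraries allow.

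**Figure D1:**
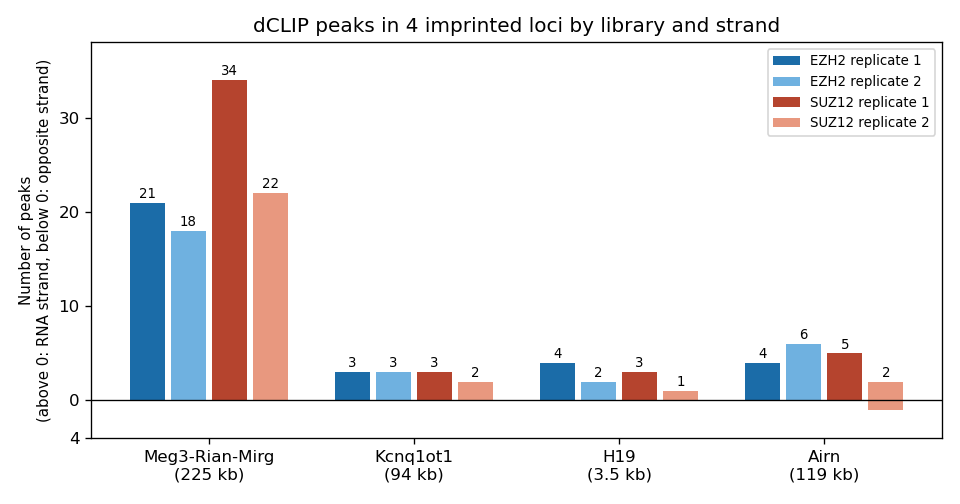
Number of peaks (vertical axis) in each locus window, 1 bar per library, with the RNA strand above 0 and the opposite strand below 0. Meg3-Rian-Mirg has 18 to 34 peaks per library, the other loci 1 to 6, and the opposite strand a single peak, in Airn.

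Few peaks lay just beyond the windows. The 225 kb upstream of the Meg3-Rian-Mirg window held 1 peak on the same strand over the 4 libraries, in SUZ12 replicate 2 and 138 kb from the window, and the 225 kb downstream held 3, at 187 to 191 kb from it. Against these stood 95 peaks inside. Sparse stretches of that length were common over mm9, untranscribed sequence included. Of 23572 windows of 225 kb, 14846 held 0 peaks, 2244 held 1 and 907 held 3. Around Kcnq1ot1 and H19, flanks as long as the windows held 0 peaks on either side. Empty stretches of these lengths were common over mm9. Of 56460 windows of 94 kb, 43536 held 0 peaks, and of 1517060 windows of 3.5 kb only 37043 held any. Upstream of Airn there were 0, and downstream 3, at 58.0 to 59.6 kb from the window, 1 each in EZH2 replicates 1 and 2 and SUZ12 replicate 1.

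Per length the loci differed widely. H19 had the densest peaks in its 3.5-kb window, at 114, 57.1, 85.7 and 28.6 per 100 kb in EZH2 replicates 1 and 2 and SUZ12 replicates 1 and 2, values that rest on 1 to 4 peaks in a short window. Meg3-Rian-Mirg followed at 9.33, 8.00, 15.1 and 9.78 per 100 kb, a mean of 10.6 ± 3.13 (SD, n = 4). Airn had 3.57 ± 1.44 and Kcnq1ot1 2.93 ± 0.532 (SD, n = 4 libraries, both proteins together). The difference between Airn and Kcnq1ot1 was not tested, and in SUZ12 replicate 2 Airn was the lower, at 1.68 against 2.13. The mean of a library over both strands of the assembled chromosomes was 0.197 to 0.263 peaks per 100 kb, untranscribed sequence included. Relative to it, Meg3-Rian-Mirg was 32.0 to 69.3 times as dense, Kcnq1ot1 8.10 to 16.2 times, Airn 6.40 to 20.2 times and H19 109 to 580 times.

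Meg3-Rian-Mirg exceeded Kcnq1ot1 by 7.63 and Airn by 6.98 peaks per 100 kb, and its difference from H19 was -60.9, each with the same sign in 4 of 4 libraries. Each of the 3 differences gave p = 0.13 (exact sign-flip permutation test, two-sided, adjusted p also 0.13), again the smallest possible value. With each window extended by 5 kb on both sides, which dilutes the short H19 window, the difference from H19 was -8.41 and its p 0.25 (exact sign-flip permutation test), so the sign no longer held in every library.

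The loci were next set beside all windows of their own length, tiled per strand over mm9, untranscribed sequence included. Most windows were empty, which makes the shares below small. Any peak at all was held by 8726 windows of 225 kb, 12924 of 94 kb, 11708 of 119 kb and 37043 of 3.5 kb. Of 23572 windows of 225 kb, 11.1% held a peak in every library and 26.1% in at least 2. Meg3-Rian-Mirg had at least 18 in every library, which 1 tiled window (0.00424%) matched, and its sum of 95 was reached by 0 windows (0%), the highest being 81. Tiled windows start at fixed positions and split this locus, while the locus window was drawn around its genes, which favours the locus. The 95 and the 81 are thus not counted on the same footing, and a rank of the locus among windows cannot be read from them. Of 56460 windows of 94 kb, 4.36% held a peak in every library and 14.1% in at least 2. Kcnq1ot1 had at least 2 in every library, as did 1.15% of them, and 1.41% reached its sum of 11. For Airn, 5.73% of 44598 windows of 119 kb had a peak in every library and 16.7% in at least 2, 1.74% at least 2 peaks in every library, and 0.601% reached its sum of 17. H19 had a peak in every library, as did 0.038% of 1517060 windows of 3.5 kb. In at least 2 libraries 0.48% of these windows had a peak, and 0.000593% (9 windows) reached the sum of 10. The tiled windows were not cleared of the loci, and 1 of these 9 is a tile that holds all 10 H19 peaks. The windows of Kcnq1ot1, H19 and Airn were also drawn around their RNAs, so their rank among windows cannot be read from these shares either.

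**Figure D2:**
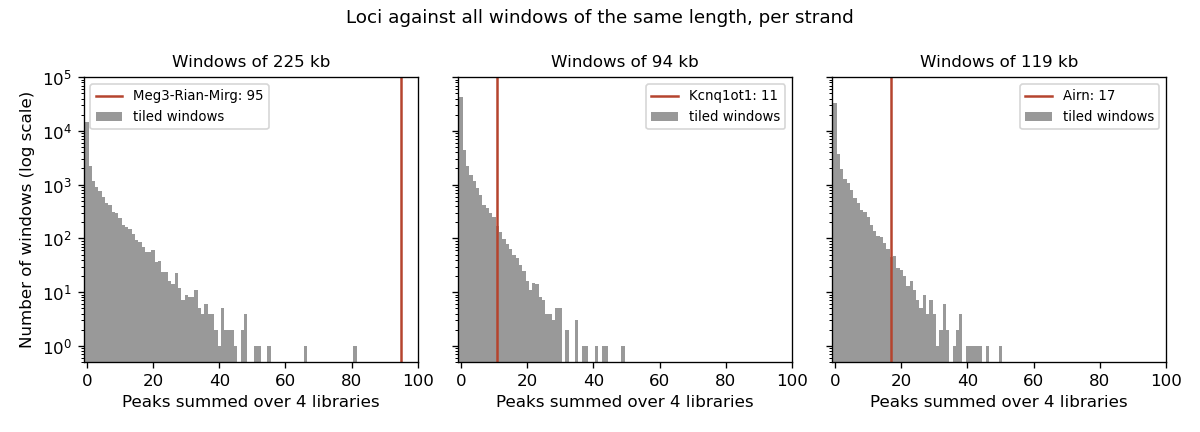
Number of tiled windows (vertical log axis) by their peaks summed over the 4 libraries (horizontal axis), for windows as long as Meg3-Rian-Mirg, Kcnq1ot1 and Airn, with each locus as a red line. Kcnq1ot1 at 11 and Airn at 17 lie within the upper tail. The tiles cover the loci too, and both of these locus windows were likewise drawn around their RNAs. Meg3-Rian-Mirg at 95, in a window drawn around its genes, lies above the highest tiled window, 81. The fixed tiles split that locus, so the 95 and the 81 are not counted on the same footing.

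The windows most like Meg3-Rian-Mirg were found by the Euclidean distance of peaks per 10000 peaks of a library, over the 4 libraries. Tiles that overlap the locus itself are left out of this list. The nearest was the plus strand of chromosome 4 at 137025001 to 137250000, with 19, 18, 21 and 23 peaks and a distance of 11.4. It was followed by plus-strand windows of chromosome 8 at 86400001 to 86625000, with 13, 13, 17 and 12 peaks, and of chromosome 6 at 124875001 to 125100000, with 10, 12, 19 and 11.

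Within Meg3-Rian-Mirg the strongest peaks lay near the 5′ end. A site at chr12:110786813-110787175, about 12 kb into the window where Meg3 begins the array, had a peak in all 4 libraries, the only member site of which this was true. Its FDR in the deposited lists was 1.44e-21 and 5.74e-17 in EZH2 replicates 1 and 2 and 7.27e-28 and 1.68e-06 in SUZ12 replicates 1 and 2. These peaks ranked 11, 37, 6 and 754 in their libraries, so SUZ12 replicate 2 was far weaker than the other 3. The summits of the 4 peaks lay within 61 bp of each other. In all sites of the series, 0.908% had a peak in all 4 libraries.

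A neighbouring site at chr12:110787906-110788013 was found in both SUZ12 libraries, with an FDR of 2.57e-05 and 1.65e-09, and held the best Meg3-Rian-Mirg peak of SUZ12 replicate 2, ranked 177. Between these sites EZH2 replicate 2 had a peak of its own at chr12:110787455-110787662 with an FDR of 3.19e-11. The first 25 kb of the window held 4 peaks in each library except SUZ12 replicate 2, which had 3. Of these 15 peaks, 9 were among the best 10% of their library. The next 25 kb held 14 peaks, 4 of them in the best 10%.

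Further 3′ the peaks were weaker but went on to the end of the array. From 50 kb to 225 kb the 25-kb bins held 6, 14, 10, 7, 7, 16 and 6 peaks, with 2, 0, 1, 0, 1, 1 and 0 in the best 10% of their library. The last summit lay 212 kb from the 5′ edge. In all, 18 of the 95 peaks (18.9%) were in the best 10% of their library and 4 in the best 1%. The widest peak, 491 bp in EZH2 replicate 2 at chr12:110986001-110986491, lay close to the 3′ end, where Mirg ends the array, and overlapped a peak of SUZ12 replicate 1. The FDR there was 3.06e-05 and 7.70e-04.

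**Figure D3:**
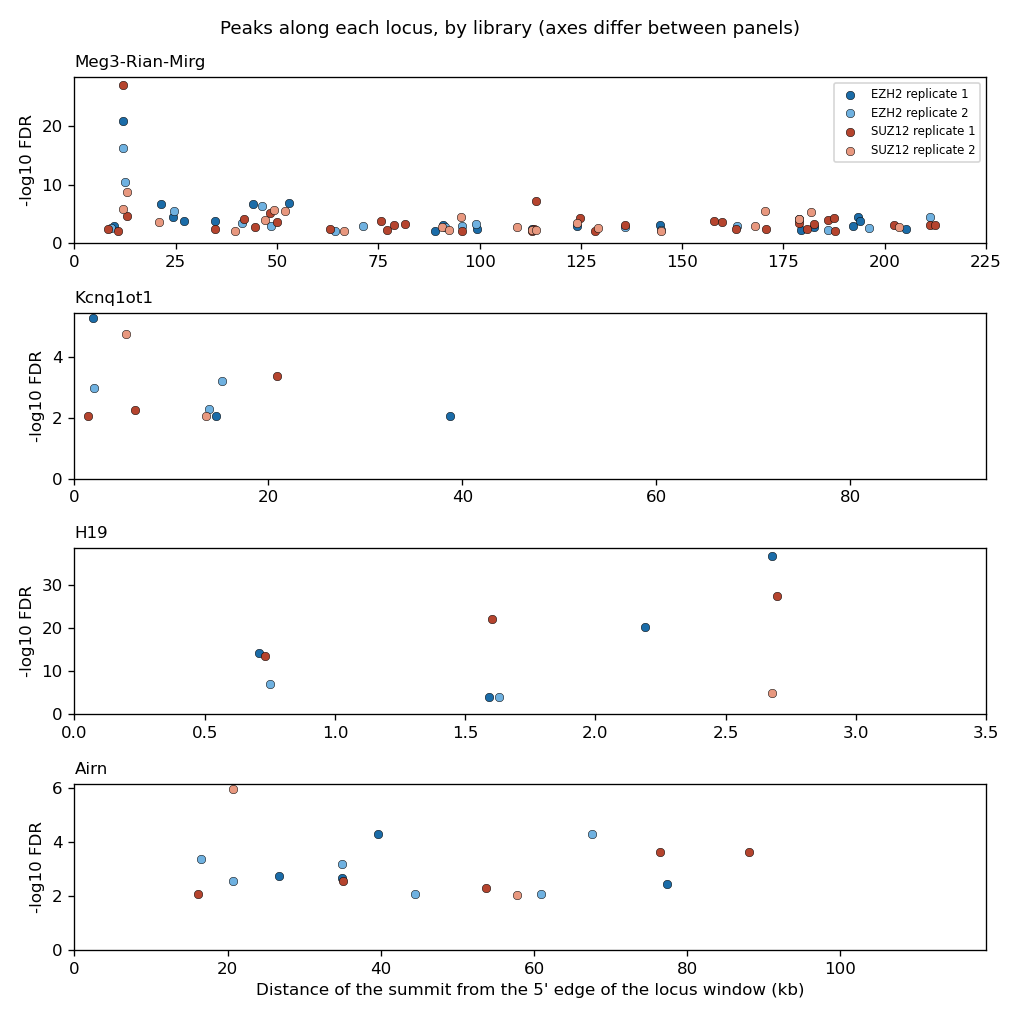
Each point is a peak, placed by the distance of its summit from the 5′ edge of the locus window (horizontal axis, kb) and by -log10 of its FDR (vertical axis), coloured by library. In Meg3-Rian-Mirg the highest points stand about 12 kb from the edge and lower ones reach 212 kb, and in Kcnq1ot1 all points lie in the first 38.8 kb.

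Peaks of Meg3-Rian-Mirg merged into 75 sites, of which 61 had a peak in 1 library, 9 in 2, 4 in 3 and 1 in 4. Thus 34 of the 95 peaks (35.8%) overlapped a peak of another library, against 17.4% of all peaks of the series, and 14 of the 75 sites were shared, against 8.08% of all sites. The shares of the series, here and for the other loci, were not matched for the density of peaks. In Meg3-Rian-Mirg that density was 32.0 to 69.3 times the mean of a library, and its part in the overlap was not tested. The 4 sites found in 3 libraries began at positions 110870315, 110887742, 110919428 and 110953742 of chromosome 12. At the first the summits spread over 384 bp, and the peaks of the SUZ12 replicates were joined only through that of EZH2 replicate 2. At the third the summits spread over 346 bp. None of these 4 sites had an FDR below 3.42e-05 in any library. The last, at chr12:110953742-110954015, had an FDR of 8.60e-05 in EZH2 replicate 1, 4.24e-04 in SUZ12 replicate 1 and 7.54e-05 in SUZ12 replicate 2.

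The remaining shared sites had a peak in 2 libraries each. One, at chr12:110874159-110874351, was in both EZH2 libraries (FDR 0.00317 and 6.18e-04). Another, at chr12:110888843-110889011, was in both SUZ12 libraries, strongly in replicate 1 (FDR 5.66e-08, rank 236) and weakly in replicate 2 (0.00524). Besides the site at the 3′ end described above, 5 joined an EZH2 with a SUZ12 library, starting at 110809585, 110865758, 110898926, 110957478 and 110960825. Sites of 1 library numbered 12 in each EZH2 library, 24 in SUZ12 replicate 1 and 13 in SUZ12 replicate 2, with a median FDR of 9.94e-04.

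H19 held the peak with the lowest FDR of the 4 loci in replicate 1 of each protein. In EZH2 replicate 2 the best Meg3-Rian-Mirg peak was stronger (rank 37 against 290), and in SUZ12 replicate 2 the best peaks of Meg3-Rian-Mirg (rank 177) and Airn (rank 686) were stronger than that of H19 (rank 1359). All 10 H19 peaks fell into 3 sites, each found in 3 libraries, where 2.13% of all sites of the series had peaks in at least 3. The site nearest the 3′ edge, chr7:149761699-149761959, had an FDR of 1.30e-37 in EZH2 replicate 1, 3.01e-28 in SUZ12 replicate 1 and 9.77e-06 in SUZ12 replicate 2. The first of these values was the best of the 5095 minus-strand peaks of EZH2 replicate 1, and the second the third best of 5633 in SUZ12 replicate 1. EZH2 replicate 2 had no peak there. The summits of the 3 libraries lay within 22 bp.

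The middle site of H19, chr7:149762270-149763005, was the longest. SUZ12 replicate 1 covered it with a single peak of 733 bp (FDR 8.73e-23), the widest of all members. EZH2 replicate 1 had peaks at both of its ends, with an FDR of 6.26e-21 and 8.67e-05, and EZH2 replicate 2 had 1 peak (7.50e-05). Merging joined these in a chain, and the summits spread over 597 bp. The site nearest the 5′ edge, chr7:149763711-149763868, had an FDR of 4.93e-15 in EZH2 replicate 1, 6.61e-08 in EZH2 replicate 2 and 2.12e-14 in SUZ12 replicate 1, with summits within 45 bp. It was the best H19 peak of EZH2 replicate 2, ranked 290 in the library. Of the 10 H19 peaks, 8 (80%) were in the best 10% of their library and 6 in the best 1%. The lone peak of SUZ12 replicate 2 was 53 bp wide.

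**Figure D4:**
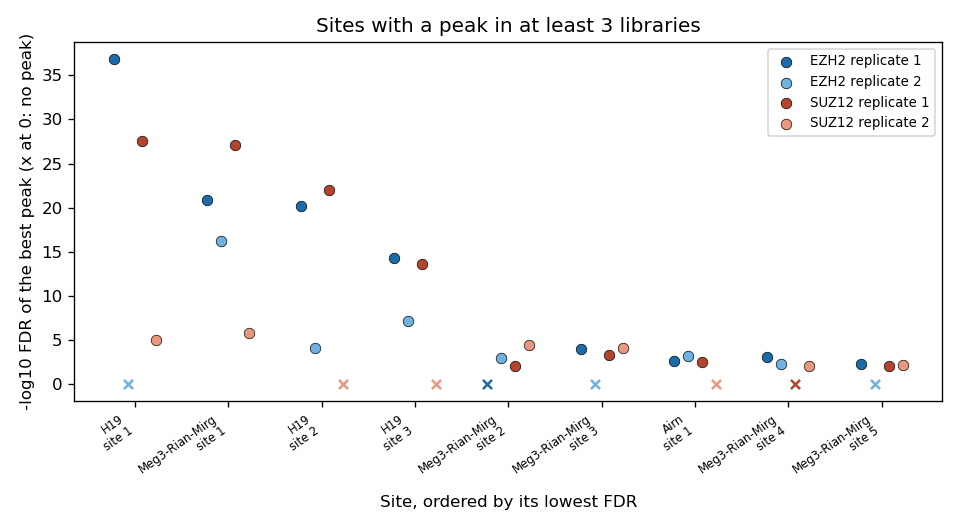
The 9 member sites with a peak in at least 3 libraries, ordered by their lowest FDR, with -log10 of the FDR of the best peak in each library (vertical axis) and a cross at 0 where a library had none. The 3 H19 sites and the first Meg3-Rian-Mirg site rise above the rest, and SUZ12 replicate 2 stands low or has no peak at these.

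Kcnq1ot1 peaks lay toward its 5′ end. All 11 summits were within 38.8 kb of the 5′ edge of the window and 10 within 25 kb, so the 3′-most 55.2 kb held no peak in any library. The only shared site, chr7:150480909-150481210, was in both EZH2 libraries, about 2 kb from the edge, with an FDR of 5.29e-06 and 0.00107. It held the widest Kcnq1ot1 peak, 241 bp in EZH2 replicate 1, ranked 616 in its library. SUZ12 replicate 1 had a peak 1.35 kb from the edge, at chr7:150481606-150481760, that did not overlap it (FDR 0.00878).

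The best SUZ12 peaks of Kcnq1ot1 were at chr7:150477663-150477798 in replicate 2 (FDR 1.82e-05) and chr7:150462041-150462199 in replicate 1 (4.36e-04). The best of EZH2 replicate 2 was at chr7:150467725-150467830 (6.38e-04). Thus 2 of 11 peaks (18.2%) overlapped a peak of another library, close to the 17.4% of all peaks. Only 1 peak was in the best 10% of its library.

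Airn peaks were spread through the middle of the window, from 16.1 to 88.0 kb from the 5′ edge, with none in the last 31.0 kb. None was in the best 1% of its library. The site found most often, chr17:12968929-12969216, had a peak in 3 libraries, with an FDR of 0.00215, 6.20e-04 and 0.00274 in EZH2 replicates 1 and 2 and SUZ12 replicate 1. It held the widest Airn peak, 212 bp. A second shared site, chr17:12954560-12954755, had a weak peak in EZH2 replicate 2 (FDR 0.00267) and the best Airn peak of any library in SUZ12 replicate 2 (1.10e-06, rank 686).

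The best Airn peaks of the other libraries, at chr17:12973589-12973762 in EZH2 replicate 1 (FDR 4.89e-05), chr17:13001535-13001729 in EZH2 replicate 2 (5.16e-05) and chr17:13021974-13022152 in SUZ12 replicate 1 (2.32e-04), were each found in 1 library. Of 17 peaks, 5 (29.4%) overlapped a peak of another library, and 1 was in the best 10% of its library. Ranked by FDR, the median Airn peak stood at 53.6% of its list, the median Kcnq1ot1 peak at 77.2%, the median Meg3-Rian-Mirg peak at 33.8% and the median H19 peak at 0.343%, lower being better. Such ranks also split peaks to which the caller gave the same p. In EZH2 replicate 1, Airn peaks of equal p stood at 47.9% and 53.6% of the list.

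EZH2 and SUZ12 were not told apart at any locus. Per 10000 peaks of a library, Meg3-Rian-Mirg held 20.1 and 13.6 in EZH2 and 29.4 and 15.8 in SUZ12, so the groups overlapped. SUZ12 was higher by 5.75, and lower in Kcnq1ot1, H19 and Airn, where the differences were -0.551, -1.01 and -1.30. All 4 gave p = 0.667 in the exact permutation test (two-sided, adjusted p also 0.667), where 2 libraries against 2 allow no p below 0.333. The sign at Meg3-Rian-Mirg turned without SUZ12 replicate 1, at -1.04. It turned at Kcnq1ot1 and Airn without SUZ12 replicate 2, at 0.0271 and 0.146, and at H19 without EZH2 replicate 1, at 0.146.

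Across 843 rows (1-Mb windows per strand and the locus itself), limma gave Meg3-Rian-Mirg a log2 difference of 0.37 ± 0.29 (SE), SUZ12 over EZH2, with an adjusted p of 0.986. Of all rows, 0% were called at an adjusted limma p of 0.05, and 38 lay under 0.05 before adjustment. The 1-Mb windows that hold Meg3-Rian-Mirg, H19 and Kcnq1ot1 gave 0.11 ± 0.24, 0.08 ± 0.45 and -0.01 ± 0.46, with adjusted p of 0.986, 0.986 and 0.997 in limma. Among the 11 member sites with peaks in exactly 2 libraries, 2 joined both EZH2 clones, 2 both SUZ12 clones and 7 a library of each protein. In all 2637 such sites of the series the shares were 13.8%, 17.5% and 68.7%.

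Member peaks were about as wide as other peaks, and their widths were not tested. They had a median width of 162, 192, 140 and 133 bp in EZH2 replicates 1 and 2 and SUZ12 replicates 1 and 2, against 177, 188, 151 and 138 bp for all peaks of these libraries. By locus the median was 145 bp in Meg3-Rian-Mirg, 129 in Kcnq1ot1, 148 in H19 and 145 in Airn.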

How the data were processed

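The 8 deposited lists gave peaks for each dCLIP library and strand in mm9, called per library and not on pooled samples; the peak names in the deposited lists carry the prefix of PeakRanger. Each peak had a p-value and FDR that the authors' caller assigned in the deposited lists. For the caller, a version, settings and a control are not given in the sources used here. Also named, per the submitters' processing notes, are bedtools 2.17.0, SAMtools 0.1.18, TopHat2 2.0.8 and Trim Galore 0.3.3. Peak lists show no read depth.

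Peaks were counted by summit. Same-strand peaks overlapping by at least 1 bp were merged into sites. Ranks follow the FDR within a library over both strands. The deposited FDR differed among peaks with the same deposited p, so ranks and best peaks can rest on such ties. Regional numbers were scaled to 10000 peaks of a library after adding 0.5, put on a log2 scale and, for rows with a mean of at least 5 peaks, compared with limma 3.58.1 (trend, Benjamini-Hochberg) in R 4.3.3. Kcnq1ot1, H19 and Airn fell under that filter. Other steps used SciPy 1.17.1, pandas 2.3.3 and NumPy 2.4.6 under Python 3.11.15, and chromosome lengths from GenomeInfoDb 1.38.1. Steps were tested on simulated data. Named were the 4 loci, every site shared by at least 2 libraries, the best peak per locus and library, the widest per locus and the 3 most similar windows. A list of imprinted neighbour genes was not analysed, as no mm9 annotation was used. Members, windows and rules were chosen with earlier results of these data known.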

Additional observations from a re-analysis of the deposited data

How the results depend on the processing

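The excess of the RNA strand and the differences in density between Meg3-Rian-Mirg and each other locus kept their direction under all 7 alternatives run for each. The size of the difference from H19 did not hold, at -8.41 peaks per 100 kb (p = 0.25, exact sign-flip permutation test) with windows extended by 5 kb against -60.9. The SUZ12 minus EZH2 differences kept theirs except with 1 library left out, when they ran from -1.04 to 12.5 peaks per 10000 at Meg3-Rian-Mirg, -1.13 to 0.0271 at Kcnq1ot1, -2.17 to 0.146 at H19 and -2.74 to 0.146 at Airn. The limma log2 difference of Meg3-Rian-Mirg then ran from -0.069 to 0.82, where the lone library of a protein is assumed to vary like the other group. With both libraries of each protein kept, no row passed the adjusted threshold of limma under any alternative. Rows with an unadjusted limma p under 0.05 ran from 7 of 269 (better 50% of a list) to 84 of 1973 (mean of at least 2 peaks). The replicate block had 0 of 843 rows past the adjusted threshold and 40 under 0.05 unadjusted. Replicate numbers are not stated to pair libraries, and deviations of same-numbered libraries correlated at 0.117 over these rows. The 20 shared member sites fell to 12 when 50% of both peaks had to overlap and to 11 with only the better 50% of a list by FDR, were 18 for summits within 100 bp, and numbered 14 to 15 with 1 library left out (added after seeing the data). That stronger 50% held 60 Meg3-Rian-Mirg, 5 Kcnq1ot1, 10 H19 and 8 Airn peaks, with at least 1 per library, and in it a peak in every library was found in 4.87% of windows at the length of Meg3-Rian-Mirg, 1.73% for Kcnq1ot1, 0.0219% for H19 and 2.33% for Airn, as fewer peaks were counted. With 2 clones per protein the exact test cannot pass 0.05 at any locus, whatever the size of a difference.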
